A study of Mus musculus with 9 samples.

Results

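The comparison described here sets 3 libraries called M against 3 libraries called ET, 6 of the 9 libraries of a poly(A) RNA-seq study of RAW264.7, a mouse macrophage cell line. The other 3, called Normal, came from untreated cells and serve as background. One of the treated groups received lipopolysaccharide (LPS), a component of the outer membrane of Gram-negative bacteria, and the other received LPS with an active extract from Traditional Chinese Medicine. The plant, the dose and the length of exposure are not given in the sources used here. The labels contradict themselves on which group is which. The data column named in each label puts LPS alone in ET and the extract in M. The library name written beside it puts the extract in ET and LPS alone in M. All differences are therefore given as M minus ET, and the sign of an extract effect is not known. Expression values were not used to choose a reading. The labels number 3 replicates per group without saying that they were separate cultures, so p-values measure the spread between these samples, which may be technical.

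LPS is sensed by the receptor TLR4, which starts NF-kB and MAP kinase signalling through the adaptor MyD88 and an interferon response through the adaptor TRIF. Macrophages answer with cytokines, chemokines and enzymes that make prostaglandins, nitric oxide and itaconate. They also raise protective programmes, among them the antioxidant genes driven by the transcription factor NRF2 and the enzymes that break down heme and store iron. Sterol synthesis, under the transcription factor SREBP2, and sterol export, under the LXR receptors, are tuned in the same cells.

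Genes with an FPKM (fragments scaled to gene length and library size) of at least 1 in at least 3 of the 9 libraries were tested, 11536 of 26146 in the table. Levels are CPM, counts scaled to a total of 1000000 after TMM scaling of the libraries. Differences are on the log2 scale with their standard error (SE), and a gene is called when the p-value of edgeR's quasi-likelihood test, adjusted over all 11536 genes by the method of Benjamini and Hochberg, is below 0.05. This is the value given as edgeR adjusted p. Total counts ran from 55039858 to 62962615 in ET and from 57796361 to 60881764 in M. A gene with 0 counts is below a floor of 3 counts, or 0.0378 to 0.0555 CPM, and such floors cover counting error only.

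Cholesterol synthesis, interferon-stimulated and cytokine genes were among those higher in M, with 18 of 25, 26 of 51 and 7 of 17 tested members called. Antioxidant genes of the NRF2 programme and lysosomal genes were among those lower, with 21 of 31 and 14 of 37 called. Over the whole table, 1048 genes were called (9.08% of those tested), 573 of them higher in M (4.97%) and 475 lower (4.12%). These shares over all genes are the background for every list count below. Most differences were small. The middle 90% of all genes lay between -0.31 and 0.33 on the log2 scale, with a median of 0.0029. By at least 1.5-fold, 98 genes were higher (0.85%) and 51 lower (0.442%), and by at least 2-fold 41 were higher and 13 lower. The libraries of the 2 groups did not overlap in 3313 genes (28.7%), of which 1045 were among those called. Only 16 tested genes reached the FPKM minimum in M alone and 14 in ET alone. Of the genes called, 54.7% were higher in M, against 44.6% with limma on log2(FPKM + 0.1), which called 339 higher and 421 lower, and 45.5% with scaling by total counts alone.

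ET replicate 3 stood apart from its group. On the first principal component of the 6 libraries (33.4% of the variance) it had a score of -7.39, while ET replicates 1 and 2 scored -14.9 and -16.8, and the M libraries scored between 12.0 and 13.7. Leaving it out raised the genes called to 1828, with 1121 higher and 707 lower. Leaving out another library lowered them, to 549 without ET replicate 1, 536 without ET replicate 2, 561 without M replicate 1, 681 without M replicate 2 and 537 without M replicate 3. Called with the same sign in the full fit and in each of these 6 fits were 220 genes higher and 180 lower in M.

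**Figure D1:**
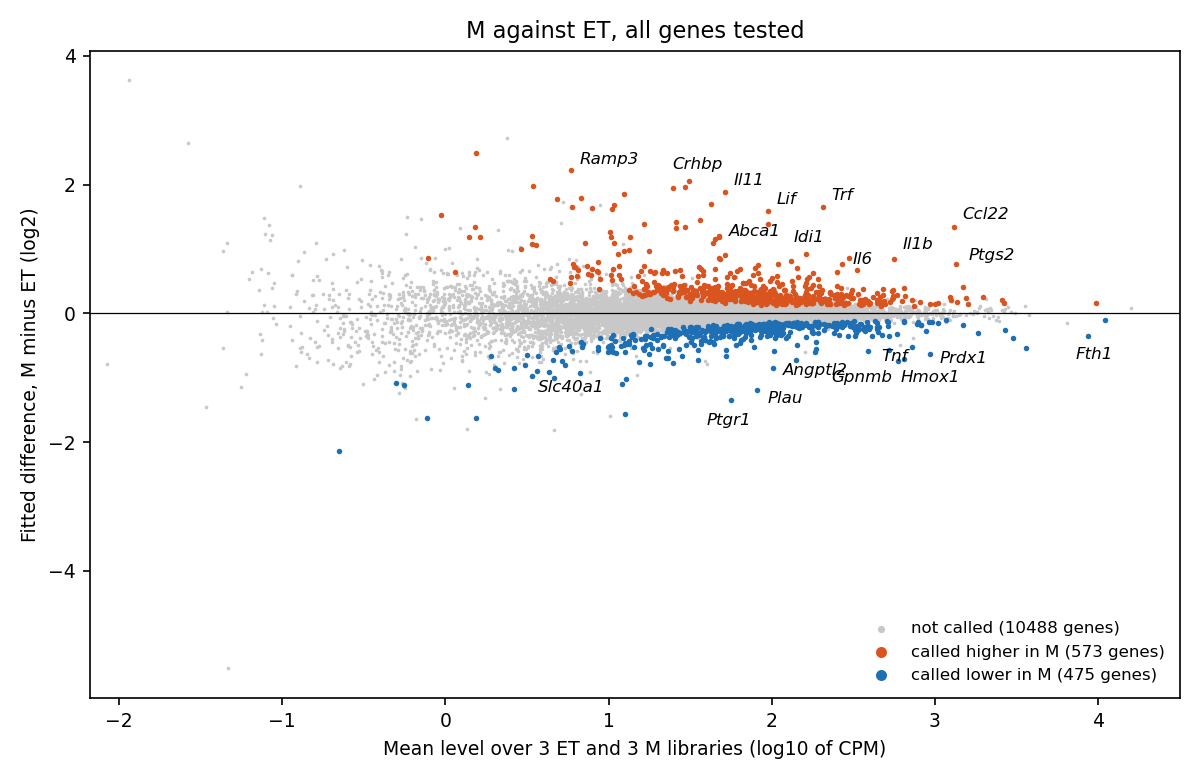
Fitted log2 difference between M and ET (vertical axis) against the mean level over the 6 libraries (horizontal axis, log10 of CPM), 1 point per gene tested. Orange and blue points are the 573 genes called higher and the 475 called lower in M; named genes are described in the text, and the abundant Ccl22 and Ptgs2 stand above the cloud while Hmox1 and Prdx1 stand below it.

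The 14 largest rises in M included secreted factors, surface receptors and a few enzymes, several of them with 0 counts in Normal. Il11 (ENSMUSG00000004371, chromosome 7, 4772373 to 4782857), a cytokine of the interleukin-6 family, had 0 counts in each Normal library. It measured 19.5, 24.2 and 22.1 CPM in ET replicates 1, 2 and 3, and 81.5, 83.2 and 79.2 CPM in the M replicates. The lowest M library held more than 3 times the highest ET library, and the difference was 1.89 ± 0.08 (SE; edgeR adjusted p = 1.1e-06), or 3.71-fold. Lif (chromosome 11, 4257557 to 4272514), leukemia inhibitory factor of the same family, gave 45.5, 52.8 and 42.8 CPM in ET and 138, 149.6 and 138 CPM in M, 1.59 ± 0.09 apart (edgeR adjusted p = 1.1e-06). Crhbp, the binding protein of corticotropin-releasing hormone, rose by 2.06 ± 0.08 from 12.1 ± 0.704 to 50.4 ± 3.57 CPM (SD, n = 3), and Ccr7, the chemokine receptor that guides cells to lymph nodes, by 1.96 ± 0.12 from 12.0 ± 1.87 to 46.6 ± 4.17. Both had 0 counts in Normal. Tnfrsf9, the co-stimulatory receptor 4-1BB, went from 52.2 ± 8.07 to 136 ± 10.9 CPM and Il2ra, a subunit of the interleukin-2 receptor, from 16.6 ± 2.29 to 42.1 ± 3.03. Tgm2, the tissue transglutaminase, went from 19.8 ± 1.68 to 64.5 ± 4.73, and Hdc, which makes histamine, from 14.9 ± 0.480 to 37.1 ± 4.58. Ramp3, a partner protein of calcitonin-family receptors, had the largest of these differences (2.23 ± 0.29) on a low level, 2.08 ± 0.966 CPM in ET. Hnrnpa3, an RNA-binding protein, also belonged to the 14 largest rises (13.97 ± 5.30 to 37.5 ± 2.99 CPM), with the limit that it has near-identical copies among which reads can be split.

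Cytokine genes moved unequally. Of 22 listed genes present, 17 were tested, of which 7 were higher in M (41.2%, against 4.97% of all genes) and Tnf alone was lower, with a median difference of 0.37 over the 17. Il1b, the fever-inducing interleukin-1β, measured 389, 435 and 387 CPM in ET and 756, 741 and 678 CPM in M. Every M library was above every ET library, by 0.84 ± 0.05 in the fit (edgeR adjusted p = 1.94e-06). Il6 (chromosome 5, 30013114 to 30019981) measured 168, 214 and 215 CPM in ET and 368, 336 and 316 CPM in M. ET replicate 1 was the lowest of the 6 libraries, the groups did not overlap, and the difference was 0.77 ± 0.09 (edgeR adjusted p = 0.000598). Osm, another interleukin-6 family member, rose from 43.8 ± 1.34 to 67.9 ± 4.48 CPM. Il1a rose from 142 ± 3.59 to 218 ± 19.8 CPM (edgeR adjusted p = 0.00217), a call made neither by DESeq2 (adjusted p = 0.744) nor by limma on log2(FPKM + 0.1) (adjusted p = 0.0774). Tnf went the other way. It measured 572, 612 and 584 CPM in ET and 429, 479 and 472 CPM in M, all M libraries below all ET libraries, with a difference of -0.36 ± 0.06 (edgeR adjusted p = 0.00323). The granulocyte growth factor Csf3, at 669.9 ± 51.6 and 726 ± 40.4 CPM, was not called, and its groups overlapped. The anti-inflammatory Il10, at 4.71 ± 0.448 and 2.97 ± 0.114 CPM, was not called either, although all its M libraries lay below all its ET libraries. Its difference was -0.67 ± 0.33 (edgeR adjusted p = 0.229). Of the 17 genes, DESeq2 called 8 higher and 2 lower, and limma on log2(FPKM + 1) called 7 higher and 2 lower. The panel gene Il12b stood at 0.285 and 0.355 CPM and was too low to be tested.

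The promoter of Il6 is shown because this cytokine carries one of the larger changes and its promoter holds a kappa-B core, the letters read by NF-kB. Sequences of this kind in the text are the 250 bases before the transcription start, from RefSeq on GRCm38.p6, 5′ to 3′ on the gene's strand, with the motif in capitals. This one lies at chr5:30012864-30013113 on the plus strand, and the letters searched were GGGANTTTC on both strands.
Il6: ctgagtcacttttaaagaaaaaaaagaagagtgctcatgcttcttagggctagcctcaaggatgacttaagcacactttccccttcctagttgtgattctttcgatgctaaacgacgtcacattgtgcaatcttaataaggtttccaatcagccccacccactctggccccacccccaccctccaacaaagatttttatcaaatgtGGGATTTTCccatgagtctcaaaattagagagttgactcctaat
The capitals begin 44 bases before the start. Of 32851 RefSeq promoter windows of 300 bases (250 before to 50 after a start), 1.11% hold this core.

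Chemokines split as well. Of 12 tested, 4 were higher and 2 lower in M, with a median of 0.10. Leaving out ET replicates 1, 2 and 3 and M replicates 1, 2 and 3 in turn gave 3, 3, 4, 2, 3 and 4 higher and 1, 1, 3, 1, 1 and 0 lower. Ccl22, which attracts CCR4-bearing lymphocytes, had the highest mean FPKM over ET and M among the genes called at 1.5-fold or more. It stood at 714, 834 and 666 CPM in ET and 1956, 1954 and 1705 CPM in M, 1.34 ± 0.10 higher in edgeR (edgeR adjusted p = 8.46e-06) with no overlap, although DESeq2 gave an adjusted p = 0.139. Ccl5, an attractant of T cells and monocytes, rose from 137 ± 17.1 to 203 ± 21.1 CPM (limma on log2(FPKM + 0.1) gave an adjusted p = 0.0952). Ccl3, a monocyte attractant whose reads can be shared with close copies, was lower, at 2928 ± 180.5 and 2435 ± 86.9 CPM (edgeR adjusted p = 0.00912, and 0.0501 without M replicate 3). Ccl2, a monocyte attractant, was not called (-0.15; edgeR adjusted p = 0.115). The receptor Cxcr3, which binds interferon-induced chemokines, fell by 0.66 on the log2 scale, from 34.6 ± 1.83 to 21.9 ± 1.48 CPM.

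The 3 enzymes best known in LPS-treated macrophages did not move as one. Ptgs2, the inducible cyclooxygenase that starts prostaglandin synthesis, measured 920.3, 1016 and 1062 CPM in ET and 1895, 1616 and 1579 CPM in M, and rose by 0.76 ± 0.07 (edgeR adjusted p = 3.1e-05). Nos2, the inducible nitric oxide synthase, measured 307, 329 and 324 CPM in ET and 318, 344 and 329.8 CPM in M. Its groups overlapped (0.05 ± 0.04; edgeR adjusted p = 0.542). Acod1, which makes itaconate, was not called either, at 1188 ± 78.4 and 1364 ± 59.5 CPM (0.20 ± 0.06; edgeR adjusted p = 0.0611). Of the 16 tested enzymes of these pathways, Ptgs2 was the only one called higher (6.25%, near the 4.97% of all genes). Another 3, Alox5, Ptgs1 and Alox5ap, were lower (18.8%, against 4.12%). That count was 3, 2, 4, 1, 2 and 2 without each library in the same order. Alox5, the 5-lipoxygenase of leukotriene synthesis, was lower (18.1 ± 1.95 to 13.6 ± 1.14 CPM; edgeR adjusted p = 0.0118, and 0.0511 without M replicate 1). Ptgr1, which inactivates leukotriene B4 and prostaglandins and is not in this list, had the largest fall of all named genes. It measured 86.7, 80.5 and 76.7 CPM in ET, 30.2, 34.6 and 30.9 CPM in M and 12.0, 9.51 and 9.99 CPM in Normal, a difference of -1.35 ± 0.09 (edgeR adjusted p = 2.31e-06).

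**Figure D2:**
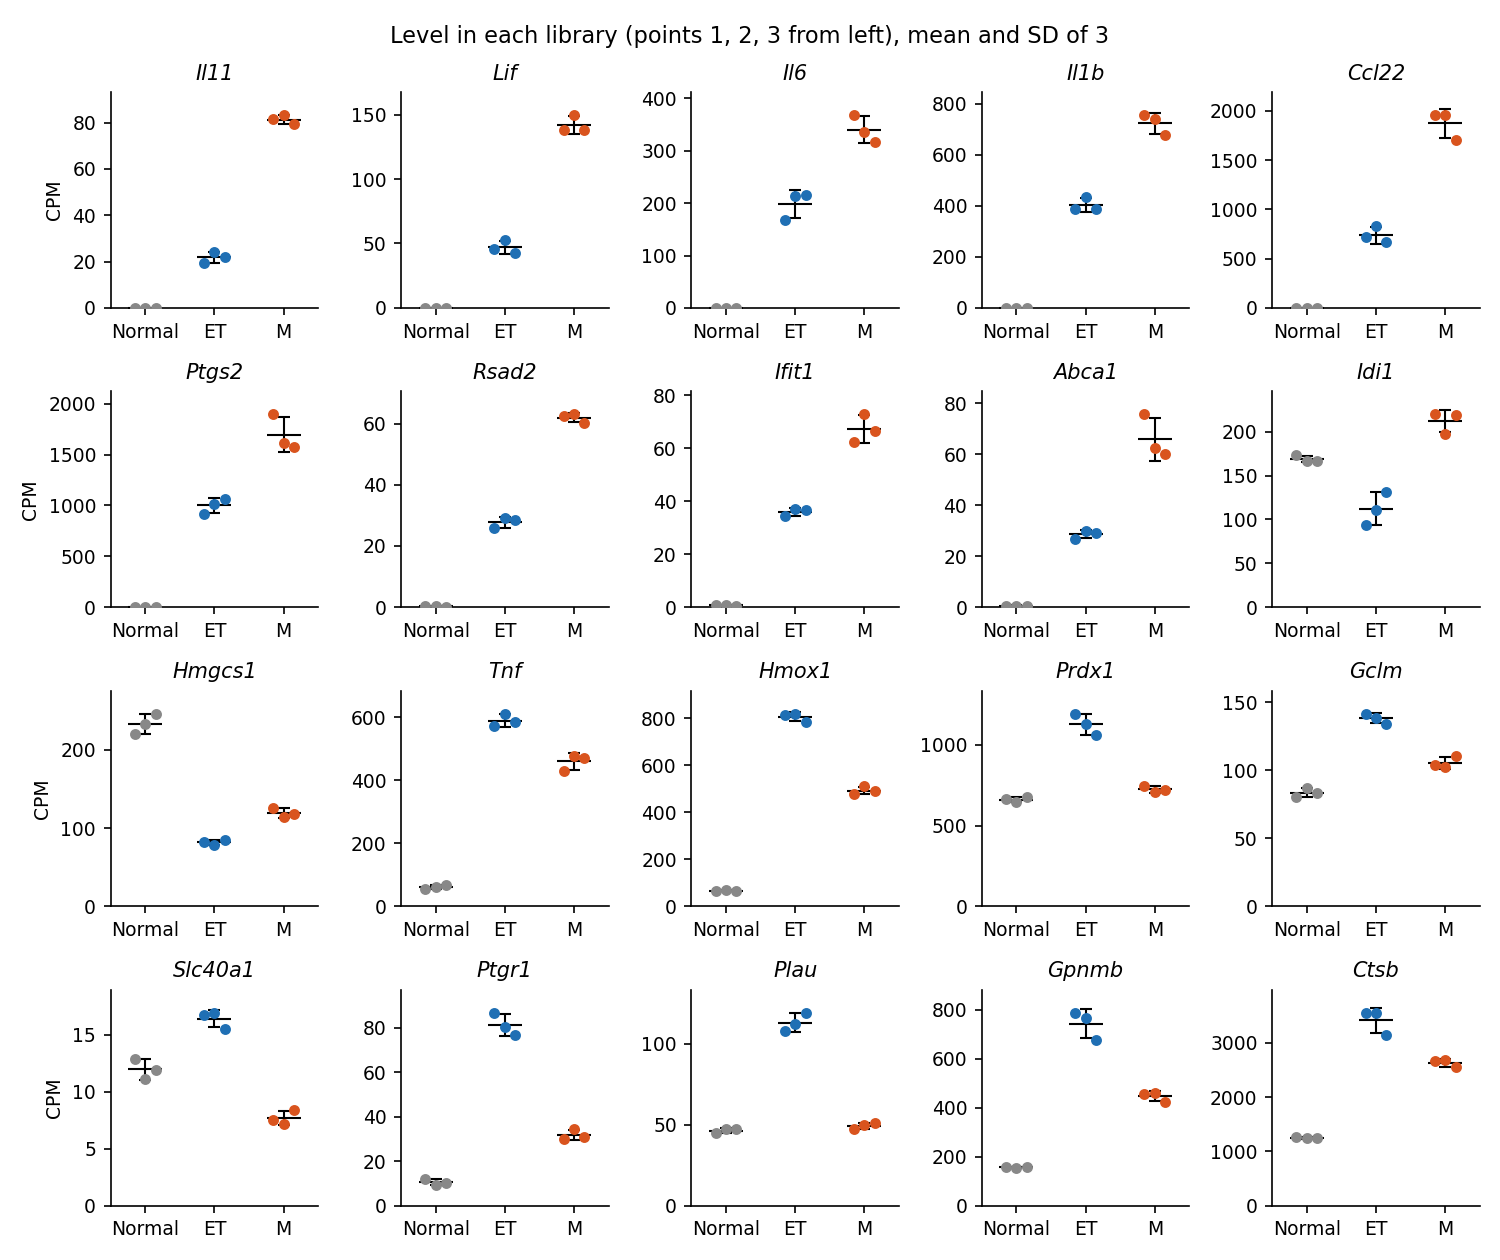
Level of 20 named genes (vertical axis, CPM on a linear scale from 0) in the 3 Normal, 3 ET and 3 M libraries, 1 point per library, with a bar at the mean and whiskers of 1 SD. The 20 were picked among called genes, of which 1045 of 1048 do not overlap. The lack of overlap in every panel therefore follows from that choice. Over all genes tested, 28.7% do not overlap. From Il11 to Hmgcs1 the M points lie above the ET points, and from Tnf to Ctsb below.

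Of 29 tested components and targets of NF-kB, 13 were higher in M (44.8%), 1 was lower and the other 15 were not called, with a median of 0.21. Among the subunits, Rel rose from 116 ± 6.75 to 172 ± 11.2 CPM (0.56 ± 0.05; edgeR adjusted p = 4.68e-05) and Nfkb1 from 302 ± 7.84 to 371 ± 5.57. The inhibitor gene Nfkbie, encoding IκBε, measured 12.9, 10.9 and 12.1 CPM in ET and 26.7, 19.96 and 23.7 CPM in M. It was about as high in ET as in Normal (11.2, 8.71 and 10.2 CPM) and higher in each M library, by 0.97 ± 0.13 (edgeR adjusted p = 0.000532). Traf1, a survival adaptor, rose from 134 ± 6.53 to 195 ± 6.43 CPM. Tnfaip2 was the only member lower, at 119 ± 4.97 and 91.3 ± 3.96 CPM. Upstream, 2 of 28 tested TLR4 signalling genes were called, both higher (7.14%, near the 4.97% of all genes; 2, 1, 5, 1, 1 and 1 without ET replicates 1 to 3 and M replicates 1 to 3 in turn). One was Myd88, which was not called in any fit without 1 library. Tlr4 itself was not called (41.0 ± 5.12 and 44.1 ± 1.73 CPM). Ikbke, a kinase of the interferon branch, had the larger of the 2 rises, from 60.3 ± 2.39 to 85.5 ± 1.40 CPM (0.50 ± 0.05; edgeR adjusted p = 5.29e-05).

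Of 51 interferon-stimulated genes tested, 26 were called higher in M (51%) and none lower, with a median of 0.31 over the 51. The count was 16 without ET replicate 1, and 18 to 29 without any other ET or M library. Rsad2, the antiviral enzyme viperin, measured 25.8, 29.0 and 28.3 CPM in ET and 62.5, 63.0 and 60.4 CPM in M, a difference of 1.16 ± 0.07 (edgeR adjusted p = 1.85e-06). Ifit1, which binds viral RNA lacking a proper cap, measured 34.4, 36.9 and 36.6 CPM in ET and 62.2, 72.8 and 66.4 CPM in M, 0.90 ± 0.10 apart (edgeR adjusted p = 0.000107). For both genes the M libraries were close to 2 times the ET libraries or above, with a narrow spread in each group. Of the transcription factors of the response, Stat2 rose from 48.1 ± 4.82 to 62.9 ± 2.51 CPM and Irf7 from 392 ± 11.9 to 488 ± 12.4 (0.32 ± 0.05; edgeR adjusted p = 0.00172). The RNA sensor Dhx58 rose from 43.2 ± 0.742 to 63.7 ± 3.00 CPM and Oasl1, which restrains Irf7 translation, from 136 ± 10.8 to 188 ± 5.40. Among 17 SOCS and JAK-STAT genes, 6 were higher and none lower, with a median of 0.13, and 3 were higher without ET replicate 1. They include Stat3, a mediator of interleukin-6 signals, which went from 195 ± 5.06 to 229 ± 3.91 CPM.

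The promoters of Ifit1 and Rsad2 are printed because both genes lead this group and both hold the core of the interferon-stimulated response element, searched as GAAANNGAA on both strands. They lie at chr19:34640639-34640888 on the plus strand, and chr12:26456453-26456702 on the minus strand.
Ifit1: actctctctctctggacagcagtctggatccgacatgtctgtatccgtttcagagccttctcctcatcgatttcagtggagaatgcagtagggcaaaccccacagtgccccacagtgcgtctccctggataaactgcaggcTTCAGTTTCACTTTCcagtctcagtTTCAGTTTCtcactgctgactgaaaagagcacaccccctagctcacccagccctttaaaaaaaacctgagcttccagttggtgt
Rsad2: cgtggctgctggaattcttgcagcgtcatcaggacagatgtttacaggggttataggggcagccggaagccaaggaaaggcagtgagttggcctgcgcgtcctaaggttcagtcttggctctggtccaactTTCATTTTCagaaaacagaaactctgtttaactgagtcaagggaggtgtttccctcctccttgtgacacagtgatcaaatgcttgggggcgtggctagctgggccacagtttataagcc
Ifit1 held 3 matches, at 109, 103 and 84 bases before the start, of which the first and second overlap, and Rsad2 held 1, at 119 bases before it. The core is present in 8.56% of all RefSeq windows. A share over the list is void, because 40 of its 51 tested members had a window, under 80%.

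Of 16 cAMP and CREB targets tested, 5 were called, all higher in M, with a median of 0.16. Nr4a2 measured 10.3, 8.17 and 8.95 CPM in ET and 24.6, 21.8 and 25.2 CPM in M, 1.38 ± 0.12 higher (edgeR adjusted p = 3.25e-05). Both this gene and its relative Nr4a1, which rose from 27.8 ± 3.31 to 58.9 ± 2.62 CPM, encode orphan nuclear receptors. The third of the family, Nr4a3, stood at 2.18 ± 0.401 and 7.46 ± 0.847 CPM. It reached the FPKM minimum through the M libraries alone, so that its call, included in the 5, adds no support. Crem, a cAMP-responsive transcription factor, rose from 27.2 ± 1.53 to 44.7 ± 1.41 CPM and Pde4b, which breaks down cAMP, from 34.3 ± 1.44 to 61.7 ± 9.18. Of 24 immediate-early genes tested, 4 were called, namely the NR4A genes, with Nr4a3 again included, and the anti-proliferative Btg2 (37.0 ± 0.811 to 48.6 ± 1.64 CPM). Egr1, an early growth response factor, stood at 22.1 ± 2.19 and 17.03 ± 1.81 CPM and was not called (-0.38 ± 0.14; edgeR adjusted p = 0.112).

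Of 31 NRF2 targets tested, 21 were called lower in M (67.7%, against 4.12% of all genes) and none higher, and the median over the 31 was -0.28. Without 1 ET or M library the count ran from 14 to 21. Hmox1 (ENSMUSG00000005413, chromosome 8, 75093621 to 75100589), the inducible heme oxygenase, measured 815, 819 and 784 CPM in ET, 477, 509.5 and 491 CPM in M and 65.2, 67.6 and 67.2 CPM in Normal. Both treated groups stood far above Normal, and M stood below ET by 1.64-fold (-0.71 ± 0.04; edgeR adjusted p = 6.48e-07). Prdx1 (chromosome 4, 116685544 to 116700822), a peroxiredoxin that removes hydrogen peroxide, measured 1193, 1128 and 1063 CPM in ET, 747, 706 and 720.2 CPM in M and 663, 646 and 675 CPM in Normal. It fell by 0.64 on the log2 scale (SE 0.04; edgeR adjusted p = 2.31e-06), to a level in M nearer to Normal than to ET. Cat, or catalase, likewise went from 176 ± 6.78 to 107 ± 5.18 CPM, and below its 127 ± 3.96 CPM in Normal. Gclm, the modifier subunit of the enzyme that starts glutathione synthesis, measured 142, 138 and 134 CPM in ET and 104, 102 and 110.4 CPM in M, a difference of -0.39 ± 0.04 (edgeR adjusted p = 0.000182). Txnrd1, the cytosolic thioredoxin reductase, went from 479.9 ± 15.9 to 404 ± 4.19 CPM, and Sqstm1, the autophagy receptor p62, from 849 ± 62.2 to 593 ± 7.59. Cbr3, a carbonyl reductase, had the largest fall of the list at a low level, 8.82 ± 1.20 to 4.62 ± 0.306 CPM (-0.93 ± 0.13). The pentose phosphate pathway enzymes G6pdx (526 to 418 CPM), Pgd (489 to 424) and Taldo1 (159 to 136) were called lower by smaller steps. Nfe2l2, the gene of NRF2 itself, was not called (81.1 ± 4.62 and 87.6 ± 5.48 CPM), nor was the cystine transporter Slc7a11 (235 ± 9.52 and 212 ± 11.2 CPM; edgeR adjusted p = 0.0629). Nqo1, the usual marker of NRF2, was too low to be tested.

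Promoters of Gclm, Prdx1 and Txnrd1 are shown for the core of the antioxidant response element, the letters that NRF2 and its partner MAF proteins bind, searched as TGACNNNGC on both strands. They lie at chr3:122245307-122245556 on the plus strand, at chr4:116685349-116685598 on the plus strand, and, for 1 of 3 starts listed for Txnrd1, at chr10:82858956-82859205 on the plus strand. All 3 matches read on the reverse strand.
Gclm: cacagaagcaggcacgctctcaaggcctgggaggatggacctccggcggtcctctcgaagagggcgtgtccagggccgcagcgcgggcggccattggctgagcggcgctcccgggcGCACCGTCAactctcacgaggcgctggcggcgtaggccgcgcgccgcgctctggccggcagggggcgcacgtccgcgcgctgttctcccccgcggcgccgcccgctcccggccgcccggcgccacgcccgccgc
Prdx1: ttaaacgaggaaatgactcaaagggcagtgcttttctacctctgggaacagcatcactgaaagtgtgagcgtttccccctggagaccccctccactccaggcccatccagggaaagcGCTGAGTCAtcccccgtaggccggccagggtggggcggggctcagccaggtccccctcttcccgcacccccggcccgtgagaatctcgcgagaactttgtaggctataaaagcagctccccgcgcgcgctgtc
Txnrd1: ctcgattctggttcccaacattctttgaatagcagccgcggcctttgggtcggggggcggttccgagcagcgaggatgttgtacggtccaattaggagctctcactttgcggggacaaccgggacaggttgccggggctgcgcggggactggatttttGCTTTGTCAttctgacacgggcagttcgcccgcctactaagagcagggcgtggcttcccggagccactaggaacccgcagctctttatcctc
The capitals begin 134, 133 and 92 bases before the start. Of the 31 tested list members 26 had a window, and 9 of these held the core in a window (34.62%), while 12.39% of all RefSeq windows do. A gene with several starts counts once here if any of its windows holds the core. Counted in that way, the core was present for 1399 of the 8267 tested genes with a window (16.92%).

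Iron and heme handling moved with opposite signs. Of 20 tested genes, 9 were lower and 2 higher in M (1 without ET replicate 1 or M replicate 2), with a median of -0.15, and 4 of the 9 (Hmox1, Blvrb, Ftl1 and Fth1) are NRF2 list members as well. Slc40a1, or ferroportin, the only known exporter of iron from cells, measured 16.7, 16.9 and 15.5 CPM in ET and 7.48, 7.18 and 8.36 CPM in M, a difference of -1.09 ± 0.10 (edgeR adjusted p = 4.48e-05). The ferritin genes, which store iron, were among the most abundant transcripts. Fth1 went from 9689 ± 409 to 7560 ± 226 CPM and Ftl1 from 4261 ± 305 to 2932 ± 92.4, with the limit that ferritin has many processed copies. Blvrb, a biliverdin reductase, went from 31.1 ± 1.62 to 18.2 ± 2.19 CPM. Against these, Trf, the iron carrier transferrin, measured 94.8, 119.6 and 84.0 CPM in ET and 334, 316 and 289.7 CPM in M. That is a rise of 1.66 ± 0.11 (edgeR adjusted p = 2.31e-06) from a Normal level of 1.78 ± 0.238 CPM. Of 15 metal response genes, 2 were lower (13.3%, against 4.12% of all genes) and none higher, and 1 was lower without any one M library. The zinc importer Slc39a4 was one of the 2, at 12.8 ± 1.28 and 8.46 ± 0.231 CPM.

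**Figure D3:**
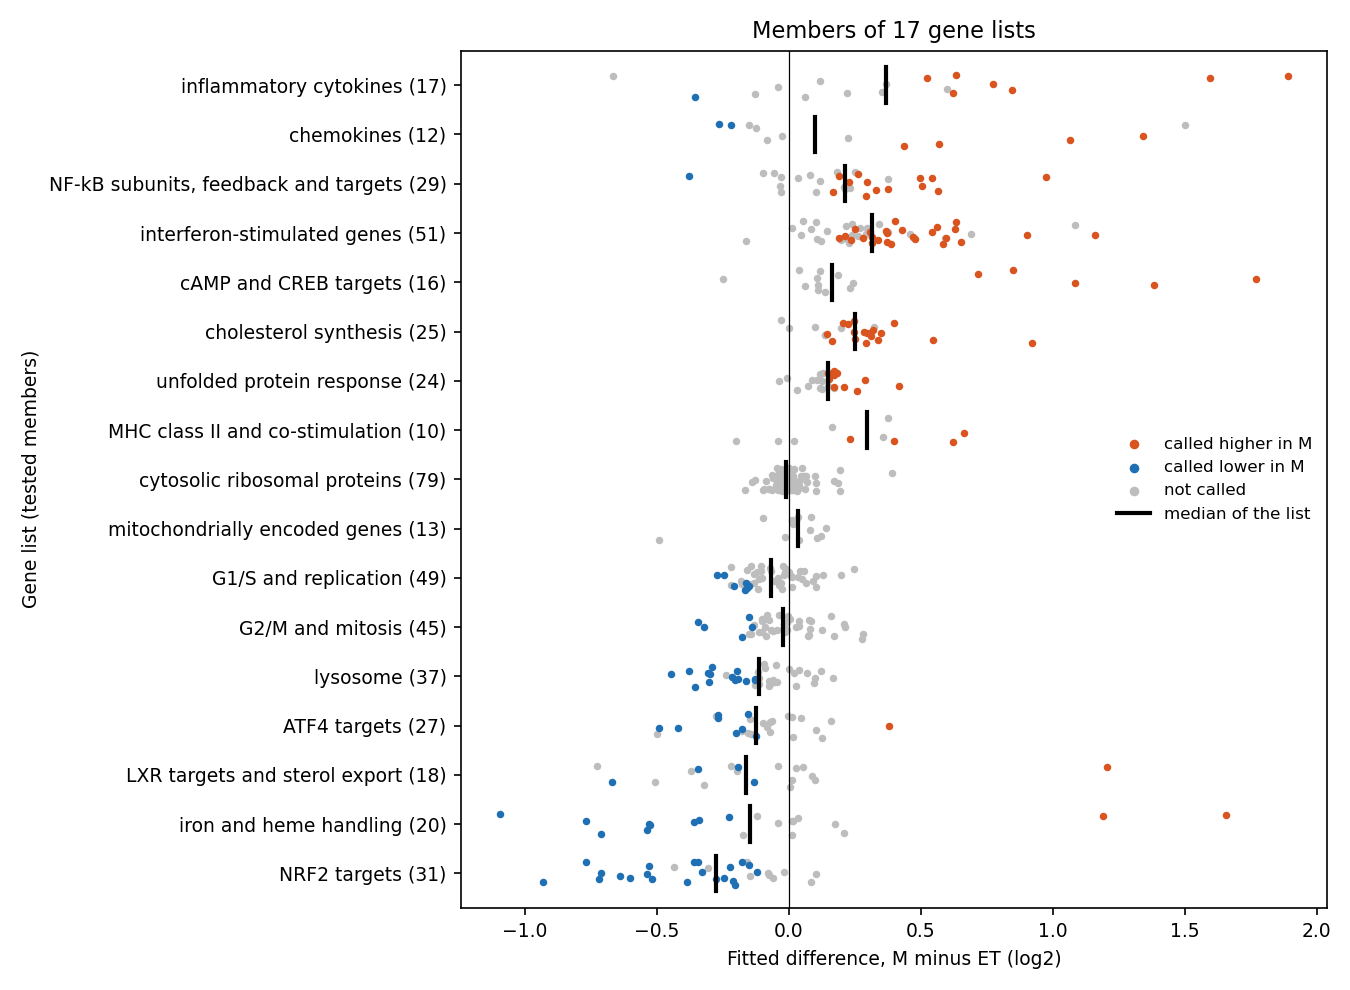
Fitted log2 difference between M and ET (horizontal axis) of each tested member of 17 gene lists, 1 point per gene, with a black bar at the list's median. Orange points are genes called higher in M, blue points genes called lower and grey points genes not called. The medians run from 0.37 for the inflammatory cytokines to -0.28 for the NRF2 targets.

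Of 25 cholesterol synthesis genes tested, 18 were called higher in M (72%, against 4.97% of all genes) and none lower, with a median of 0.25, and the count was 16 to 18 in every fit without 1 ET or M library. Idi1, which makes the isoprene unit used by the pathway, measured 93.8, 111 and 132 CPM in ET, 219.7, 198 and 219 CPM in M and 173, 166 and 167 CPM in Normal. Its ET libraries stood below Normal and its M libraries above it, and M minus ET was 0.92 ± 0.09 (edgeR adjusted p = 8.01e-05). Hmgcs1 (chromosome 13, 119690379 to 119708260), the cytosolic HMG-CoA synthase, measured 81.8, 78.5 and 85.3 CPM in ET and 126, 115 and 118 CPM in M, both below its 221, 233 and 246 CPM in Normal. The M libraries were 1.46-fold higher than ET (0.54 ± 0.05; edgeR adjusted p = 5.29e-05). Fdps, which builds farnesyl diphosphate, went from 230.0 ± 11.8 to 303 ± 4.98 CPM and Hsd17b7, a reductase late in the pathway, from 85.7 ± 4.69 to 109 ± 1.86. Srebf2, the gene of SREBP2, was higher by 0.16.

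The Hmgcs1 promoter is printed because the gene leads the list by p-value together with Idi1 and holds the sterol regulatory element core CACCCCAC, read by SREBP proteins. It lies at chr13:119690101-119690350 on the plus strand.
Hmgcs1: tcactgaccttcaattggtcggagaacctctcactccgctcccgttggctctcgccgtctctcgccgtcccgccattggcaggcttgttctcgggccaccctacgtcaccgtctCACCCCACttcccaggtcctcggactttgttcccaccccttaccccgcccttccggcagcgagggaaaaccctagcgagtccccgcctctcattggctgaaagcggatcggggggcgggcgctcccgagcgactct
The capitals begin 136 bases before the start, and 2.87% of all RefSeq windows hold these letters on either strand. A share over the list is void here too, with windows for 18 of 25 members.

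Sterol export did not follow a single direction. Abca1, the transporter that loads cholesterol onto apolipoprotein A-I, measured 26.8, 29.9 and 29.1 CPM in ET and 75.6, 62.2 and 59.9 CPM in M, 2.31-fold higher (1.21 ± 0.10; edgeR adjusted p = 2.55e-05). Abcg1, which exports cholesterol to mature lipoproteins, measured 66.5, 63.3 and 64.1 CPM in ET and 42.0, 40.1 and 39.8 CPM in M, 1.59-fold lower (-0.67 ± 0.04; edgeR adjusted p = 2.31e-06). Both are textbook LXR targets, and in both the groups did not overlap. Of 18 tested genes of the LXR list, Abca1 alone was higher and 4 were lower, with a median of -0.16, or 0.001 with the filter at an FPKM of 5. The number lower was 2, 2, 4, 2, 5 and 2 without ET replicates 1 to 3 and M replicates 1 to 3 in turn. Lipid uptake and storage genes gave 1 higher of 22 tested (4.55%, near the 4.97% of all genes), or 2 without M replicate 2. They gave 4 lower (18.2%, against 4.12%), and 3 to 4 without 1 ET or M library. Plin2, the coat protein of lipid droplets, went from 362 ± 13.1 to 283 ± 22.9 CPM, and Lpl, lipoprotein lipase, from 109 ± 5.22 to 86.1 ± 4.75. Fatty acid synthesis genes gave 4 higher and none lower of 19 (1, 3, 5, 1, 3 and 1 higher in the same order), among them the elongase Elovl6 (55.3 ± 7.44 to 72.6 ± 3.18 CPM).

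Of 24 unfolded protein response genes, chaperones of the endoplasmic reticulum among them, 11 were higher in M (45.8%) and none lower, with a median of 0.15. The count was 6 without M replicate 3 and 7 without ET replicate 1. Hsp90b1, the chaperone GRP94, measured 1183, 1196 and 1446 CPM in ET and 1690, 1663 and 1750 CPM in M, a difference of 0.42 ± 0.06 (edgeR adjusted p = 0.00172). Hspa5, the chaperone BiP, went from 1802 ± 62.9 to 2152 ± 3.27 CPM. Of 27 targets of ATF4, the transcription factor of amino acid shortage, 8 were lower and the stress gene Ddit4 alone was higher (not without ET replicate 1 or M replicate 3), with a median of -0.12. That count of 8 was 5 without ET replicate 1, 2 without ET replicate 2 and 4 without any one M library. Atf5 (44.9 ± 1.38 to 33.6 ± 2.17 CPM) and Phgdh, which opens serine synthesis (410.1 ± 19.2 to 340.0 ± 8.96 CPM), were among those lower. Of 22 heat shock chaperones, 4 were higher (18.2%, against 4.97% of all genes), Hspa4l among them (215 ± 25.2 to 289 ± 11.1 CPM). That count was 1, 1, 8, 2, 2 and 1 without ET replicates 1 to 3 and M replicates 1 to 3 in turn.

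Of 37 lysosomal genes tested, 14 were lower in M (37.8%), none was higher and 23 were not called, with a median of -0.12. The count was 19 without ET replicate 3, 6 without ET replicate 1, 7 without ET replicate 2, 9 without M replicate 1, 7 without M replicate 2 and 8 without M replicate 3. Cathepsins were among the 14. Ctsb measured 3550, 3541 and 3150 CPM in ET and 2662, 2675 and 2545 CPM in M (-0.38 ± 0.04; edgeR adjusted p = 0.00016), with ET replicate 3 the lowest of its group and still above every M library. Ctsd went from 2027 ± 104 to 1638 ± 72.1 CPM, Ctsl from 495 ± 12.6 to 405 ± 10.6, and the acid lipase Lipa from 359.8 ± 3.07 to 292 ± 7.07. Gpnmb, a glycoprotein of lysosomes and melanosomes that is not in this list, was one of the largest falls, at 788, 766 and 677 CPM in ET and 457, 459 and 424 CPM in M (-0.74 ± 0.05; edgeR adjusted p = 4.88e-06).

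Among the named genes, secreted proteases and matrix-related factors included the steepest fall after Ptgr1. Plau, the urokinase plasminogen activator, measured 108, 112 and 119 CPM in ET, 47.3, 49.6 and 50.9 CPM in M and 44.7, 47.2 and 47.2 CPM in Normal. The M libraries lay close to the Normal libraries, and 2.29-fold below ET (-1.20 ± 0.05; edgeR adjusted p = 1.68e-07). Timp1, an inhibitor of matrix metalloproteinases, rose from 38.6 ± 3.25 to 51.0 ± 1.89 CPM. Of 21 genes of this kind 6 were higher and Plau alone was lower, where 2 were lower without ET replicate 1 and 3 without ET replicate 3. Angptl2, a secreted angiopoietin-like protein, fell from 130.4 ± 3.64 to 72.0 ± 0.413 CPM, and the tight junction gene Cldn11 from 28.4 ± 2.15 to 17.5 ± 0.885.

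Of 10 genes for MHC class II or co-stimulation, 4 were higher and none lower, with a median of 0.30. Cd86, a ligand of CD28 on T cells, rose from 12.2 ± 0.894 to 19.3 ± 1.87 CPM, and Cd274, which encodes PD-L1, from 39.8 ± 3.01 to 52.5 ± 1.54. Cd83, a surface marker of activated antigen-presenting cells that is not in this list, measured 222, 219 and 196 CPM in ET and 426, 377 and 352 CPM in M (0.86 ± 0.06; edgeR adjusted p = 6.28e-06). Of 23 MHC class I genes 6 were higher and 1 was lower, where reads of the H2 genes can be shared. Without ET replicates 1 to 3 and M replicates 1 to 3 in turn, 3, 4, 6, 3, 3 and 3 were higher, and the lower one was called without ET replicate 3 only. Among pattern-recognition and scavenger receptors 2 of 20 were higher (10%, against 4.97% of all genes). Another 3 were lower (15%, against 4.12%), or 1 without M replicate 3. Nod2, a sensor of bacterial cell wall fragments, rose from 14.9 ± 1.04 to 23.2 ± 0.457 CPM and Trem2, a receptor for lipids, was lower, going from 51.8 ± 1.40 to 37.1 ± 1.802. Of 19 macrophage identity genes, 5 were lower, among them Lyz2 (lysozyme, 961 ± 30.5 to 796 ± 15.5 CPM) and Mpeg1 (perforin-2, 389 ± 5.96 to 330.5 ± 23.5), and 1 was higher. In the same order of libraries left out, 3, 2, 6, 3, 2 and 3 were lower, and the higher one was called without ET replicate 3 only. None of the 10 osteoclast genes was called by edgeR, DESeq2 or limma, with differences from -0.11 to 0.20 and an unadjusted edgeR p under 0.05 for 2 of them.

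None of 79 cytosolic ribosomal protein genes (a name pattern that takes in a few ribosomal-like genes) and none of 13 mitochondrially encoded genes was called by edgeR, DESeq2 or limma. An unadjusted edgeR p under 0.05 was seen for 2 of the 79 and 3 of the 13, and the differences ran from -0.16 to 0.39 and from -0.49 to 0.14. Of 53 nuclear respiratory chain genes 2 were lower (3.77%, near the 4.12% of all genes). That count was 0, 0, 5, 0, 1 and 0 without ET replicates 1 to 3 and M replicates 1 to 3 in turn. The 35 glycolysis and HIF1 target genes gave 4 higher and 4 lower (11.4% each way, against 4.97% and 4.12% of all genes), or 2 lower without any one of these libraries except ET replicate 3, where 4 were lower. Hk3, a hexokinase of myeloid cells, fell from 223 ± 5.48 to 147 ± 3.67 CPM and Ndrg1, a hypoxia-responsive gene, from 43.8 ± 3.39 to 26.6 ± 1.72, while Vegfa, the vascular growth factor, rose from 55.8 ± 3.56 to 77.1 ± 4.17 and Hif1a from 224 ± 17.6 to 275 ± 10.2. Of 49 G1/S and replication genes, 7 were lower (14.3%, against 4.12% of all genes) and none higher. Without ET replicate 3, however, 3 were higher and 15 lower, and the number lower was 2 without ET replicate 1, ET replicate 2 or M replicate 3, 5 without M replicate 1 and 3 without M replicate 2. G2/M genes gave 5 lower (11.1%) and none higher of 45, and 10 lower and 9 higher without ET replicate 3. The number lower was 2 without ET replicate 1 or M replicate 3 and 1 without M replicate 1. The median G2/M member stood 0.079 above its 6-library mean in ET replicate 3, and at -0.003 and -0.029 in ET replicates 1 and 2. Whether the share of dividing cells moves with any result was not tested.

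**Figure D4:**
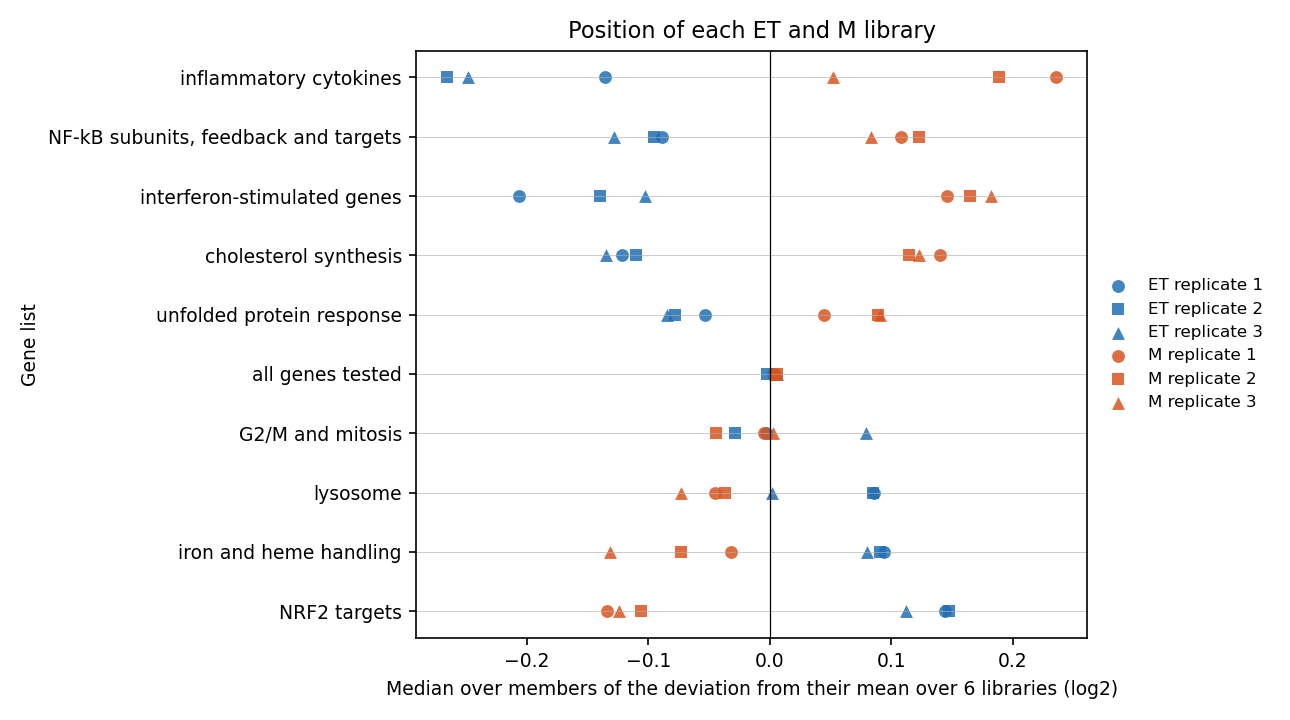
Median over the tested members of 9 gene lists, and over all 11536 genes, of each library's deviation from the gene's mean over the 6 libraries (horizontal axis, log2), 1 symbol per library. Blue symbols are ET and orange symbols M. For the cytokine, NF-kB, interferon, cholesterol, unfolded protein, iron and NRF2 lists the ET and M symbols lie on opposite sides of 0, while ET replicate 3 comes near 0 for lysosomal genes and to the right for G2/M genes.

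The position of each library shows how even these shifts were. The median NRF2 target stood at 0.144, 0.148 and 0.112 from its 6-library mean in ET replicates 1, 2 and 3, and at -0.134, -0.106 and -0.124 in the M replicates, on the log2 scale. The median cholesterol gene stood at -0.122, -0.11 and -0.135 in ET and at 0.14, 0.115 and 0.123 in M. For lysosomal genes ET replicate 3 was at 0.002, while the other ET libraries were at 0.086 and 0.085 and the M libraries between -0.073 and -0.037. Over all genes the medians were between -0.002 and 0.006. These values describe lists whose direction was known when they were chosen, and no test was made on them.

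RAW264.7 libraries should hold macrophages only, and they held their defining markers. Cd68, Csf1r, Lyz2, Itgam and Adgre1 stood at 675, 1209, 961, 473 and 195 CPM in ET and at 618, 1120, 796, 489 and 210.3 CPM in M, and Cd68, Csf1r and Lyz2 were called lower. Some defining genes of other cell types, namely Cd3d, Col1a1, Epcam, Hbb-bs, Mpo and Elane, were at or near 0 in both groups, with means of at most 0.148 CPM. Other members of the same marker lists were expressed, as the sums below show. The 10 B lymphocyte markers in the table summed to 53.7 to 57.2 CPM in ET and 63.0 to 66.1 in M, nearly all of it Ighm (51.4 ± 1.899 and 60.8 ± 1.31 CPM), an immunoglobulin gene that was called higher in M and was higher still in Normal (468 ± 16.5 CPM). The 10 fibroblast markers summed to 9.95 to 11.5 CPM in ET and 13.8 to 19.0 in M, mostly Lum (8.13 ± 0.480 and 13.1 ± 2.75 CPM), which was called higher. The 7 granulocyte markers summed to 30.4 to 37.0 and 33.3 to 37.1 CPM, nearly all of it S100a8. T and NK cell markers summed to 7.89 to 8.82 and 7.55 to 8.86 CPM, epithelial and endothelial markers to 19.4 to 21.9 and 22.1 to 24.2, and erythroid markers to 1.64 to 2.04 and 1.37 to 2.67. The part of these markers in the results was not tested. Mitochondrial transcripts took 3.29 to 3.62% of counts in ET and 3.46 to 3.78% in M. In bulk RNA, fewer cells of a kind and less RNA per cell cannot be told apart.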

How the data were processed

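The data are 9 poly(A) libraries of RAW264.7, 3 per group, from a kit that marks strand, per the labels' protocols. The submitters' processing notes name cutadapt 1.9, HISAT2 2.2.1, StringTie 2.1.6, DESeq2 and edgeR. The deposited counts are whole numbers per gene and library, made by the authors. The FPKM values were also made by the authors, per the file headers. The counting tool, its strand setting and the genome build are not given in the sources used here, so overlapping and antisense genes cannot be told apart. For 23547 of 26146 genes (90.1%) the deposited start and end are those in GENCODE M21 (GRCm38), and coordinates are those of the table.

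Columns were assigned to groups by the column name in each label. The genes kept by an FPKM minimum of 1 in 3 or more of the 9 libraries were fitted with edgeR 4.0.16 in R 4.3.3 (quasi-likelihood test, TMM factors, 1 fit of 3 groups, contrast M minus ET, Benjamini-Hochberg adjustment over 11536 genes, threshold 0.05). The SE of a difference is its size divided by the square root of the F statistic. The main edgeR fit was tried on simulated data, and the alternatives were not. Alternatives were DESeq2 1.42.0, limma 3.58.1 on log2 FPKM with pseudocounts of 1 and 0.1, other scalings and filters, GC and length offsets, a replicate block, a threshold of 0.01 and leaving out each library.

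The comparison and the gene lists were chosen with earlier results of these data known. Lists are described by counts and medians of their tested members. Named genes were the 14 largest rises and the 14 largest falls among called genes whose groups did not overlap (mean FPKM of 5 or more where higher, predicted genes left out), a panel of 30 genes, the 10 genes with the highest mean FPKM over ET and M among those called at 1.5-fold or more, and, per list, up to 5 called members by p and up to 3 called against its direction. A few other list members, the markers and the promoters shown were chosen after their values were seen. Promoter windows are those of RefSeq on GRCm38.p6, matched by symbol for 8267 of the tested genes.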

Additional observations from a re-analysis of the deposited data

How the results depend on the processing

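The numbers of genes called moved with the setting. DESeq2 gave 895 higher and 787 lower in M where edgeR gave 573 and 475, limma on log2(FPKM + 0.1) gave 339 higher, no FPKM filter gave 345 and 270, and a threshold of 0.01 gave 215 and 171. At 1.5-fold or more, where 98 were higher and 51 lower, a filter at an FPKM of 5 gave 53 and 26, limma on log2(FPKM + 1) gave 29 lower and the threshold of 0.01 gave 32 lower. Leaving out 1 library gave 265.0 to 1121 higher, 244 to 707 lower, 72 to 122 higher by 1.5-fold and 38 to 71 lower by 1.5-fold. The cause of these shifts was not tested, except that a stricter filter or threshold admits fewer genes by construction. Among the named genes, the sign turned for 2 that were not called, and other genes were not checked for this. Tlr4 was at -0.00938 with a GC offset and between -0.000159 and 0.177 without 1 library, and Cdkn1a between -0.0165 and 0.0676 without 1 library.

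With the replicate block, 508 genes were higher and 414 lower, and 93 and 54 by 1.5-fold. The numbers do not pair the samples by the labels. Deviations of ET and M libraries with the same number correlated at 0.0309 to 0.0756, and those with other numbers at -0.0571 to 0.0233. Among ET and M pairs, all 6 libraries correlated best with their own number, a hint from the data and not from the design. The second principal component of the 6 libraries (18.9% of the variance) ordered the replicates alike in both groups. ET replicates 1, 2 and 3 scored 12.3, -3.84 and -12.2 on it, and the M replicates 14.6, -2.28 and -8.57. The main fit has no term for the number. Correlations of this size also arose without a shared number. Normal replicate 3 and ET replicate 2 correlated at 0.0861, and same-number pairs with Normal at -0.0503 to 0.00985.

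The limits are 3 libraries a group, ET replicate 3 standing apart, labels that disagree on which group received the extract, no statement of separate cultures, and, for genes near the floor of 3 counts, the depth.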
